A study of Mus musculus with 26 samples.

Results

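The genes described here are interferon-stimulated genes, which cells switch on after an interferon binds its receptor. They were taken as a list of 37 gene symbols, with no threshold on a measured value. A probe was matched to 35 of them, and all 35 passed the filter on dim probes, among 22950 features tested. Mx1 and Mx2 were not analysed here. The probe used for each of the 35 genes was well above background in the lung channel in all 25 animals, and no spot of theirs was saturated. The filter therefore removed none of the matched genes.

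The data are 2-colour Agilent arrays of lung RNA from MutaMouse mice, a transgenic strain built for counting mutations in tissue DNA, about 12 weeks old. The series title names the genotoxicity of multiwalled carbon nanotubes in the lung. The 5 groups held 5 animals each. NM-401 high and NM-401 low received 128 and 42.7 µg per mouse of the nanotube NM-401, Mitsui high and Mitsui low received 128 and 42.7 µg per mouse of the nanotube Mitsui XNRi-7, and the control group received none. Nanotubes were suspended in mouse serum and instilled into the trachea weekly, 4 times, and lungs were taken 56 days after the last instillation. All animals were of this strain, and the lung RNA came from random sections of frozen tissue. No label tells if the stated dose was given each time or summed over the 4 instillations. Controls are described in the protocol as gavaged with olive oil and elsewhere as vehicle controls, and the mice as female in the sample labels and male in the design. Values are log2 ratios of lung RNA, labelled Cy5, over a universal mouse reference RNA, labelled Cy3. Values per animal are given for animals 1 to 5 of a group in that order.

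Type I interferons bind a receptor made of Ifnar1 and Ifnar2, whose kinases Jak1 and Tyk2 act on transcription factors in the cytoplasm. The complex ISGF3, which holds Stat2 and Irf9, then binds a short promoter element, the interferon-stimulated response element (ISRE), and turns on genes that block viral replication at many steps. Interferon gamma has its own receptor and acts through another element, the gamma-activated site (GAS). In the lung, macrophages, plasmacytoid dendritic cells and epithelium can make type I interferons when sensors of nucleic acid such as Tlr7, Cgas with Sting1, or Ddx58 are engaged.

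Promoter stretches of 6 members are shown because they hold a match to the core of the ISRE, the element ISGF3 is known to bind. They were read from the RefSeq promoter table for the mouse build GRCm38.p6, 5′ to 3′ on the gene's own strand, and capitals mark the first match to the ISRE core (GAAA, any 2 bases, GAAA) or its reverse complement (TTTC, any 2 bases, TTTC).
Stat2 (chr10:128270256-128270305, plus strand): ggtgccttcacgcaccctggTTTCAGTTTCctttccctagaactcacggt
Isg15 (chr4:156200867-156200916, minus strand): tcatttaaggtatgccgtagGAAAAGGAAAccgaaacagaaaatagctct
Oas1a (chr5:120907526-120907565, minus strand): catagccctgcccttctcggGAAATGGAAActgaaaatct
Oas3 (chr5:120777705-120777754, minus strand): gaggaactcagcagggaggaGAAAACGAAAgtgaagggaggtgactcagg
Ifit1 (chr19:34640765-34640814, plus strand): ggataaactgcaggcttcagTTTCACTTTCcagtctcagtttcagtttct
Ifit3 (chr19:34583353-34583402, plus strand): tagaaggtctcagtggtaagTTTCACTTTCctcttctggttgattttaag
Isg15 held 3 matches and Oas1a, Ifit1 and Ifit3 held 2 each, of which the later ones are left in lower case or lie outside the stretch. The first matches start 222, 78, 20, 75, 104 and 156 bases before the listed start of transcription of Stat2, Isg15, Oas1a, Oas3, Ifit1 and Ifit3, in that order. The table held a promoter (250 bases before to 50 after the start) for 26 of the 35 genes. On either strand the ISRE core was found in 13 of these 26 genes (50.0%), against 3.99% of 27025 genes in the table. The other 7 with a match were Ddx58, Ifih1, Gbp2, Gbp3, Rsad2, Bst2 and Eif2ak2. The GAS core TTCNNNGAA, which reads the same on both strands, was found in 5 of 26 (19.2%), against 9.55% of all genes. Those were Oas1a, Bst2, Eif2ak2, Ifit2 and Ifi35. A match describes the letters in this window and nothing about binding. By position these genes do not form 1 cluster, since the 6 shown lie on chromosomes 4, 5, 10 and 19. Related members do share chromosomes. Oas1a, Oas2, Oas3, Oasl1 and Oasl2 lie on chromosome 5, and Ifit1, Ifit2 and Ifit3 on 19. Gbp2 and Gbp3 lie on 3, Rsad2 and Cmpk2 on 12, and Parp9, Parp14 and Dtx3l on 16.

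In the arrays as a whole, the lung channel was well above background at 45.8% to 62.1% of probes, and any 2 arrays correlated at 0.876 or more over the features tested. The 26 arrays lay on 4 slides, 1 Mitsui low animal having been run on slides 3 and 4. Its 2 arrays gave member values a median of 0.16 apart, and at most 0.58 apart, for Ifih1. Slide as a term was called in 5965 of 22950 features by limma's F test and in 0 of the 35 members. With 34 of the 35 members above the 90th percentile of residual SD, this test could miss a slide effect in them. The 0 therefore does not tell if slide left the members unchanged. The mean over lung epithelial and endothelial markers, surfactant genes among them, was 5.63 to 5.91 in NM-401 high, 5.21 to 5.93 in NM-401 low, 5.75 to 6.02 in Mitsui high, 5.87 to 6.17 in Mitsui low and 5.70 to 6.09 in control lungs, far above the reference RNA in every animal.

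The interferon-stimulated genes were higher in nanotube-exposed lungs than in control lungs, most often with NM-401 at the high dose. There 32 of 35 members rose (91.4%), against 18.4% of all features called higher, and the median log2 change was 1.28, where the median over all features was -0.00451. With NM-401 low 20 rose (57.1%), against 8.95% of all features, with a median of 1.04. With Mitsui high 5 rose (14.3%), against 12.7% of all features, with a median of 0.64, and with Mitsui low 6 rose (17.1%), against 10.6%, with a median of 0.68. Both Mitsui shares lie near their background, while the median changes do not lie near those of all features, -0.00104 and -0.00408. No member fell in any exposure, and at an unadjusted p under 0.05 33, 29, 11 and 19 members differed in NM-401 high, NM-401 low, Mitsui high and Mitsui low. Of all features, 16.4%, 8%, 11% and 10.4% were called lower in NM-401 high, NM-401 low, Mitsui high and Mitsui low. The only change below 0 was that of Bst2 with Mitsui high, -0.05 ± 0.51 (SE). Calls are limma's Benjamini-Hochberg adjusted p under 0.05 over all 22950 features, with 5 animals a group, and the 4 exposures share the same control animals. In whole lung, more cells of a type and more RNA per cell cannot be told apart.

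**Figure D1:**
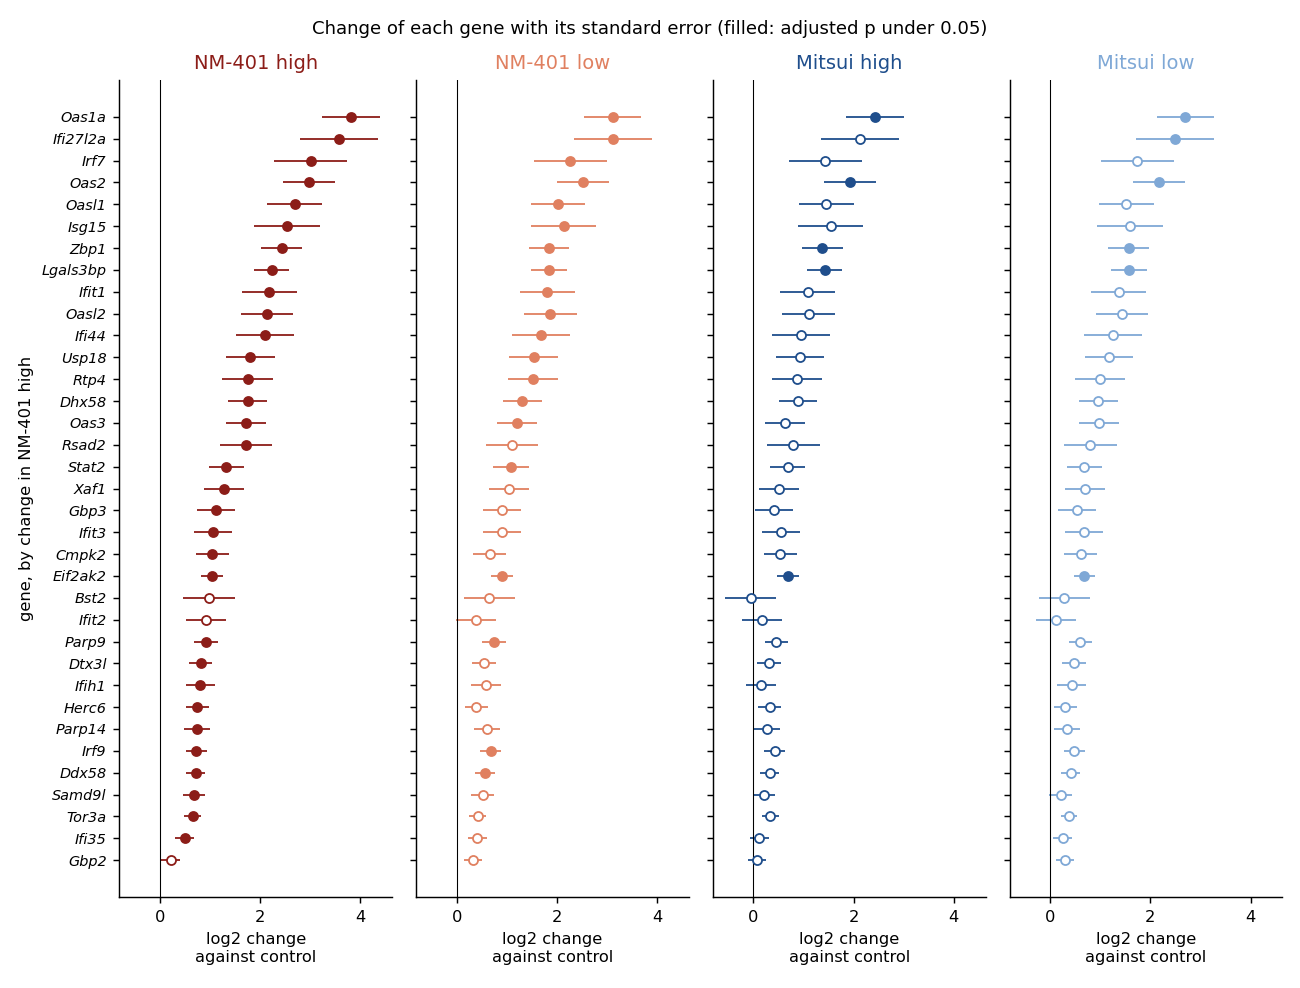
Log2 change against control of each of the 35 genes (dots) with its standard error (bars) in NM-401 high, NM-401 low, Mitsui high and Mitsui low, genes ordered by the change in NM-401 high; filled dots passed an adjusted p of 0.05. Filled dots number 32, 20, 5 and 6 from left to right, and Oas1a leads 3 of the 4 panels.

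The order of the groups changed when overlap was counted in place of calls. All 5 exposed animals lay above all 5 controls for 10 members in NM-401 high (28.6%, against 12% of all features), 12 in NM-401 low (34.3%, against 6.53%), 17 in Mitsui high (48.6%, against 8.22%) and 16 in Mitsui low (45.7%, against 8.45%). So the Mitsui groups had fewer calls and more members without overlap than the NM-401 groups. The fit gives each gene 1 SD pooled over all 5 groups, though the spread differed between groups. Ifit1 had an SD of 1.35 in NM-401 high, 0.55 in Mitsui high and 0.09 in control lungs, and an SE of 0.55 in each comparison with control. In both Mitsui groups it did not overlap the controls and was not called. The part of the pooled SD in the Mitsui counts was not tested. For 8 members, Dhx58, Zbp1, Oas1a, Oas2, Oasl1, Ifit1, Eif2ak2 and Lgals3bp, every one of the 20 exposed animals lay above every control. For 25 of the 35 at least 15 of the 20 did, and the fewest were 8 of 20, for Gbp2. These counts over 20 animals have no share of all features beside them and are given as a description. Eif2ak2, Lgals3bp, Oas1a, Oas2 and Zbp1 were called in all 4 exposures, Ifi27l2a in 3, 14 members in both NM-401 groups, 12 in NM-401 high alone and 3, Bst2, Gbp2 and Ifit2, in none.

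These counts depend on the normalization. With each array centred on its median in place of loess, 12 members were called in NM-401 high and 0 in NM-401 low, Mitsui high and Mitsui low, when 1064, 62, 121 and 74 of all features were. The NM-401 low count rests on single animals: it was 8 without NM-401 low animal 3 or animal 4, 7 without animal 5, and 13, 11, 11 and 12 without control animals 2, 3, 4 and 5. Between arrays of the same slide, the median member change against control was 0.91, 0.76 and 1.89 on slides 1, 3 and 4 for NM-401 high, and 1.50, 0.11, 1.95 and 1.73 on slides 1 to 4 for NM-401 low. The within-slide medians were 0.79, 0.64, 0.81 and 0.37 for Mitsui high and 0.57, 1.64, 0.46 and 0.74 for Mitsui low, so all 15 were above 0, with 1 or 2 arrays on each side.

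The animals of a group differed widely, and the same animals were high for nearly every member. The mean log2 ratio over the 35 members was 1.22, 0.58, 2.84, 2.54 and 2.31 in the 5 NM-401 high animals and 0.68, 0.62, 2.17, 2.08 and 2.30 in the 5 NM-401 low animals. It was 1.37, 0.68, 1.07, 1.03 and 1.45 in Mitsui high, 1.37, 0.58, 1.10, 2.25 and 1.04 in Mitsui low and 0.54, 0.46, 0.17, 0.19 and 0.32 in control animals. Every exposed mean was above every control mean, though NM-401 high animal 2 and Mitsui low animal 2, both at 0.58, lay close to the highest control at 0.54. In both NM-401 groups animals 1 and 2 lay below animals 3, 4 and 5 in 35 of 35 members. The space between them was largest for Irf7, 1.89 in NM-401 high and 2.62 in NM-401 low, and smallest for Tor3a, 0.18 and 0.26, with medians over members of 1.01 and 1.23. In Mitsui low, animal 4 was the highest in 35 of 35 members and animal 2 the lowest in 32.

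**Figure D2:**
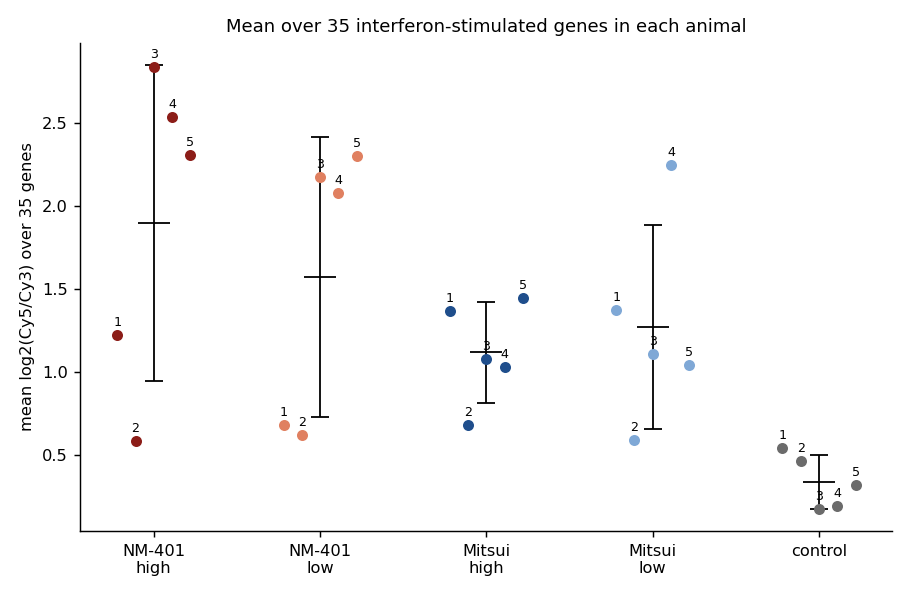
Mean log2(Cy5/Cy3) over the 35 interferon-stimulated genes in each animal (numbered dots), with the group mean and SD (bars, n = 5). Animals 3, 4 and 5 of both NM-401 groups and animal 4 of Mitsui low lie between 2.08 and 2.84, and the controls lie between 0.17 and 0.54.

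Slide and detection beside these values were as follows. NM-401 high animals 2 and 3, the lowest and the highest of their group, shared slide 1. NM-401 low animals 1 and 2 shared slide 2 with Mitsui low animal 4, the highest of its group. The share of probes well above background was 50.7%, 59.7%, 52.2%, 62.1% and 58.1% in the 5 NM-401 high animals and 54.0%, 54.8%, 60.2%, 53.6% and 49.6% in the 5 NM-401 low animals. The part of detection in the member values was not tested. The number of members above every control ran from 10 in NM-401 high animal 2 to 35 in animals 3 and 4 of that group. In NM-401 low it was 19, 13, 35, 35 and 35, in Mitsui high 33, 19, 28, 27 and 32, and in Mitsui low 34, 17, 29, 35 and 26. Such counts per animal are also a description, with no share of all features beside them.

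**Figure D3:**
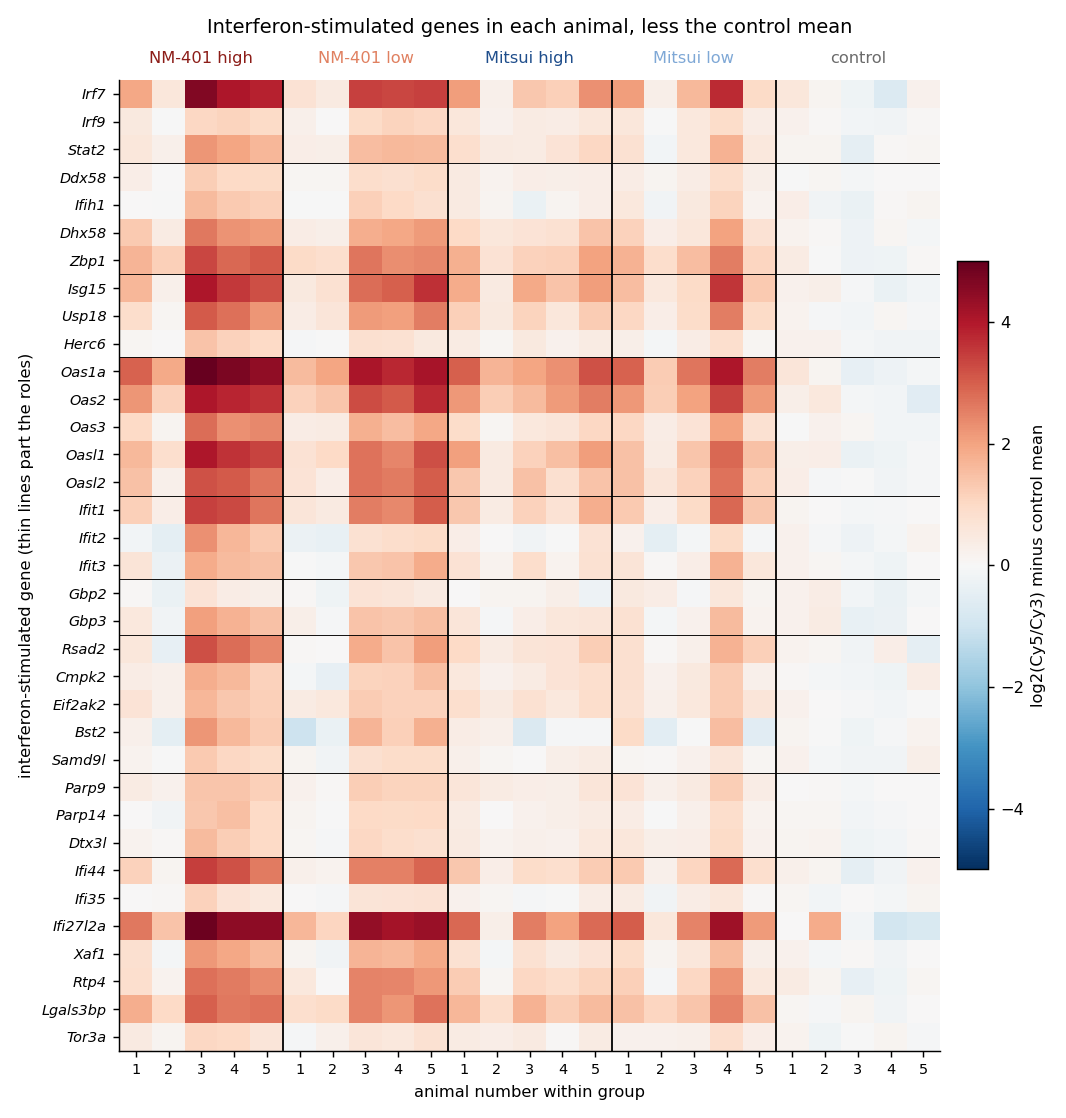
Heat map of log2(Cy5/Cy3) of the 35 genes (rows, parted by role) in each of the 25 animals (columns), less the mean of the 5 controls; red is above and blue below that mean. Animals 3, 4 and 5 of both NM-401 groups and animal 4 of Mitsui low are the highest columns of their groups, and animal 2 of NM-401 high is the lowest of its group in 34 of the 35 rows.

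The spread was larger than that of most features. The SD over the 5 animals of a group had a median over members of 0.92 in NM-401 high, 0.87 in NM-401 low, 0.35 in Mitsui high, 0.65 in Mitsui low and 0.21 in control lungs, where the median over all features was 0.14, 0.15, 0.15, 0.13 and 0.15. Within groups, 34 of the 35 members had a residual SD above the 90th percentile of all features, 29 above the 95th and 17 above the 99th. The widest was Ifi27l2a at 1.34 and the narrowest Tor3a at 0.27. In control lungs only 4 members passed the 95th percentile of that group. The wide spread enters the fit's standard errors: Irf7 changed by 1.74 ± 0.73 (SE) with Mitsui low and was not called (adjusted p = 0.0945, limma), whereas Eif2ak2 changed by 0.68 ± 0.22 and was (adjusted p = 0.0259).

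**Figure D4:**
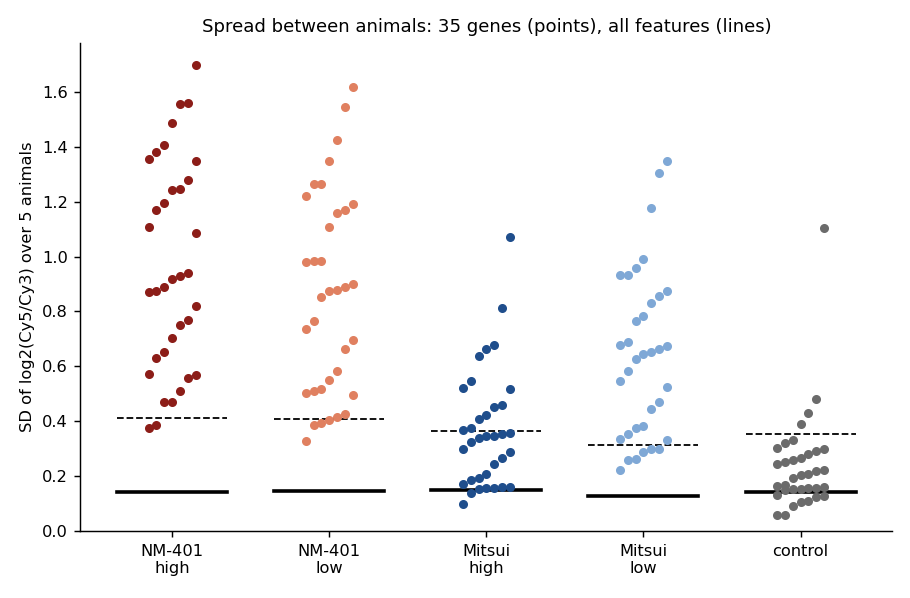
SD of log2(Cy5/Cy3) over the 5 animals of each group for each of the 35 genes (dots), with the median (solid line) and the 95th percentile (dashed line) of all features of that group. In NM-401 high 33 of 35 genes lie above the dashed line, in NM-401 low 31, in Mitsui high 14, in Mitsui low 29 and in control 4.

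Members moved together across animals. After the group means were removed, each member's values were correlated over the 25 animals with the mean of the other members. Pearson's r had a median of 0.97 and ran from 0.71 for Gbp2 to 0.99 for Ifi44, with 32 of 35 above 0.9. These points share arrays and the same reference RNA, and r is given as a description without a test.

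Among the transcription factors, all 3 rose in both NM-401 groups and none was called in a Mitsui group. Of all features 18.4% rose in NM-401 high, 8.95% in NM-401 low, 12.7% in Mitsui high and 10.6% in Mitsui low. These shares stand beside every count by role from here on. Each role holds few members, so a single call is a result about that gene and not about the role. Irf7, the factor that amplifies type I interferon production and is itself induced, had log2 ratios of 0.42, -0.96, 3.12, 2.50 and 2.32 in NM-401 high lungs and -0.82, -1.09, 1.90, 1.80 and 1.88 in NM-401 low lungs. Irf7 read 0.57, -1.29, -0.18, -0.33 and 0.75 in Mitsui high, 0.56, -1.25, 0.11, 2.20 and -0.55 in Mitsui low and -0.94, -1.41, -1.74, -2.22 and -1.32 in control lungs. Animal 2 of NM-401 high, animal 2 of NM-401 low and animal 2 of each Mitsui group lay inside the control range, and animals 3, 4 and 5 of both NM-401 groups lay at 1.80 or more, against -0.94 in the highest control. Irf7 was 8.04-fold higher in NM-401 high (95% interval 2.84 to 22.8, adjusted p = 0.00223, limma) and 4.8-fold higher in NM-401 low (1.69 to 13.6, adjusted p = 0.0338), with changes of 1.43 and 1.74 in Mitsui high and Mitsui low.

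Stat2, the ISGF3 subunit with the transactivation domain, had 0.95, 0.65, 2.59, 2.36 and 2.06 in NM-401 high lungs and 0.74, 0.70, 1.95, 2.03 and 1.98 in NM-401 low lungs. Stat2 read 1.25, 0.84, 0.80, 1.08 and 1.42 in Mitsui high, 1.16, 0.25, 0.94, 2.13 and 0.93 in Mitsui low and 0.55, 0.53, -0.04, 0.47 and 0.48 in control lungs. Every exposed animal but Mitsui low animal 2 lay above every control, whose lowest, animal 3, stood apart from the other controls. Its log2 changes were 1.32 in NM-401 high, 1.08 in NM-401 low, 0.68 in Mitsui high and 0.68 in Mitsui low. Irf9, the DNA-binding subunit of ISGF3, had 1.61, 1.11, 2.16, 2.24 and 2.06 in NM-401 high lungs and 1.35, 1.13, 2.09, 2.24 and 2.15 in NM-401 low lungs. Irf9 read 1.67, 1.34, 1.54, 1.48 and 1.66 in Mitsui high, 1.70, 1.11, 1.66, 2.02 and 1.49 in Mitsui low and 1.32, 1.16, 0.98, 0.95 and 1.16 in control lungs. Its range was narrower than that of Irf7, and the Mitsui high animals all lay above the controls. Irf9 changed by 0.72 ± 0.21 and 0.68 ± 0.21 (SE) in NM-401 high and NM-401 low, against an Irf7 change of 3.01 ± 0.73 and 2.26 ± 0.73.

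Of the 4 sensors of nucleic acid on the list, all rose with NM-401 high, 3 with NM-401 low and 1, Zbp1, with each Mitsui dose. Zbp1, which binds Z-form nucleic acid and can start necroptosis, had 1.00, 0.50, 2.67, 2.18 and 2.38 in NM-401 high lungs and 0.27, 0.15, 1.99, 1.65 and 1.73 in NM-401 low lungs. Zbp1 read 1.11, 0.04, 0.47, 0.50 and 1.33 in Mitsui high, 1.05, 0.19, 0.87, 1.89 and 0.38 in Mitsui low and -0.29, -0.70, -0.93, -0.89 and -0.62 in control lungs. All 20 exposed animals were above all controls, whose highest was -0.29. Its folds were 5.39-fold in NM-401 high (95% interval 3.02 to 9.64), 3.59-fold in NM-401 low (2.01 to 6.42), 2.59-fold in Mitsui high (1.45 to 4.64) and 2.95-fold in Mitsui low (1.65 to 5.28).

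Ddx58, the RNA sensor RIG-I, had 1.09, 0.78, 1.99, 1.77 and 1.74 in NM-401 high lungs and 0.87, 0.85, 1.66, 1.55 and 1.69 in NM-401 low lungs. Ddx58 read 1.22, 0.95, 1.11, 1.07 and 1.08 in Mitsui high, 1.13, 0.88, 1.14, 1.65 and 1.04 in Mitsui low and 0.75, 0.85, 0.68, 0.77 and 0.76 in control lungs. All 10 Mitsui animals lay above every control, though by little, and the changes there, 0.33 and 0.41, were not called, while those of 0.71 and 0.56 in NM-401 high and NM-401 low were. Ifih1, the sensor of long double-stranded RNA known as MDA5, had 1.76, 1.71, 3.30, 3.02 and 2.91 in NM-401 high lungs and 1.71, 1.70, 2.94, 2.75 and 2.52 in NM-401 low lungs. Ifih1 read 2.18, 1.89, 1.40, 1.87 and 2.08 in Mitsui high, 2.27, 1.57, 2.23, 2.83 and 1.90 in Mitsui low and 2.08, 1.54, 1.40, 1.79 and 1.85 in control lungs. Animals 1 and 2 of both NM-401 groups lay inside the control range, and only the NM-401 high change of 0.81 was called. A second Ifih1 probe gave 0.33 in NM-401 high, 0.03 in NM-401 low, 0.03 in Mitsui high and -0.0017 in Mitsui low. Dhx58, known as LGP2, which modulates both RNA sensors, changed by 1.75 in NM-401 high, 1.31 in NM-401 low, 0.89 in Mitsui high and 0.96 in Mitsui low, called in both NM-401 groups.

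In the ISG15 system, by which a ubiquitin-like protein is attached to other proteins, all 3 members rose with NM-401 high and Isg15 and Usp18 with NM-401 low. Isg15, the modifier itself, had 1.01, -0.38, 3.42, 2.88 and 2.58 in NM-401 high lungs and -0.14, 0.11, 2.16, 2.35 and 3.02 in NM-401 low lungs. Isg15 read 1.23, -0.19, 1.25, 0.78 and 1.46 in Mitsui high, 0.93, -0.11, 0.34, 2.94 and 0.67 in Mitsui low and -0.41, -0.34, -0.70, -0.97 and -0.76 in control lungs. NM-401 high animal 2 was the 1 exposed animal inside the control range. Isg15 was 5.81-fold higher in NM-401 high (95% interval 2.28 to 14.8) and 4.39-fold higher in NM-401 low (1.72 to 11.2). With Mitsui high and Mitsui low its folds of 2.91 and 3 were not called (adjusted p = 0.0915 and 0.089, limma), although none of those 10 animals overlapped the controls.

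Usp18, which removes ISG15 and damps receptor signalling, had 0.21, -0.56, 2.43, 2.11 and 1.55 in NM-401 high lungs and -0.28, -0.07, 1.46, 1.40 and 1.89 in NM-401 low lungs. Usp18 read 0.54, -0.18, 0.48, -0.07 and 0.62 in Mitsui high, 0.39, -0.30, 0.26, 1.92 and 0.31 in Mitsui low and -0.49, -0.73, -0.80, -0.55 and -0.70 in control lungs. Its pattern over animals followed that of Isg15, with NM-401 high animal 2 again the only exposed animal not above all controls. Log2 changes of Usp18 were 1.80 in NM-401 high, 1.53 in NM-401 low, 0.93 in Mitsui high and 1.17 in Mitsui low. Herc6, the main ISG15 ligase of mouse cells, changed least of the 3, by 0.74 in NM-401 high, 0.39 in NM-401 low, 0.32 in Mitsui high and 0.30 in Mitsui low, and 12 of 20 exposed animals lay above every control.

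The 2′-5′-oligoadenylate synthetase (OAS) family, which senses double-stranded RNA and activates RNase L, held the largest median change of the roles in each exposure. All 5 members rose in both NM-401 groups, and Oas1a and Oas2 also rose in both Mitsui groups. The family medians were 2.69 in NM-401 high, 2.02 in NM-401 low, 1.45 in Mitsui high and 1.52 in Mitsui low. Oas1a had 1.63, 0.56, 3.78, 3.37 and 3.09 in NM-401 high lungs and 0.27, 0.65, 2.77, 2.44 and 2.78 in NM-401 low lungs. Oas1a read 1.67, 0.36, 0.65, 0.95 and 1.84 in Mitsui high, 1.62, -0.06, 1.36, 2.72 and 1.22 in Mitsui low and -0.72, -1.21, -1.72, -1.57 and -1.43 in control lungs. Every exposed animal exceeded the highest control, and the lowest was Mitsui low animal 2. Oas1a was 14.1-fold higher in NM-401 high (95% interval 6.2 to 31.9, adjusted p = 1.36e-05, limma), 8.65-fold in NM-401 low (3.81 to 19.6), 5.36-fold in Mitsui high (2.36 to 12.2) and 6.49-fold in Mitsui low (2.86 to 14.7).

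Oas2 had 1.29, 0.24, 3.13, 2.88 and 2.73 in NM-401 high lungs and 0.24, 0.48, 2.34, 2.16 and 2.82 in NM-401 low lungs. Oas2 read 1.24, 0.31, 0.67, 1.21 and 1.63 in Mitsui high, 1.25, 0.30, 1.10, 2.44 and 1.19 in Mitsui low and -0.63, -0.38, -1.02, -1.07 and -1.49 in control lungs. Here too no exposed animal overlapped the controls, and the change was 2.97 in NM-401 high, 2.53 in NM-401 low, 1.93 in Mitsui high and 2.18 in Mitsui low. Oas3, the largest of the synthetases, had -0.23, -1.11, 1.53, 1.04 and 1.16 in NM-401 high lungs and -0.88, -0.85, 0.55, 0.29 and 0.70 in NM-401 low lungs. Oas3 read -0.33, -1.15, -0.73, -0.64 and -0.21 in Mitsui high, -0.22, -0.88, -0.56, 0.76 and -0.49 in Mitsui low and -1.29, -1.02, -1.17, -1.40 and -1.37 in control lungs. Animal 2 of NM-401 high and of Mitsui high lay inside the control range, and both Mitsui changes, 0.64 and 0.97, missed the threshold.

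Oasl2, an OAS-like protein, had 2.18, 0.96, 3.87, 3.77 and 3.38 in NM-401 high lungs and 1.37, 1.02, 3.39, 3.30 and 3.73 in NM-401 low lungs. Oasl2 read 2.06, 1.13, 2.14, 1.50 and 2.13 in Mitsui high, 2.16, 1.31, 1.83, 3.41 and 1.88 in Mitsui low and 1.03, 0.62, 0.66, 0.52 and 0.63 in control lungs. Its highest control, animal 1, lay above the lowest NM-401 high and NM-401 low animals. Oasl2 changed by 2.14 in NM-401 high, 1.87 in NM-401 low, 1.10 in Mitsui high and 1.43 in Mitsui low. Oasl1, which in mice blocks translation of Irf7, changed by 2.69 in NM-401 high, 2.02 in NM-401 low, 1.45 in Mitsui high and 1.52 in Mitsui low and was above every control in 20 of 20 exposed animals.

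Of the 3 IFIT proteins, which bind viral RNA with foreign ends, 2 rose with NM-401 high and 1 with NM-401 low. Ifit1 had 0.58, -0.29, 2.78, 2.67 and 2.06 in NM-401 high lungs and 0.00081, -0.18, 1.93, 1.76 and 2.41 in NM-401 low lungs. Ifit1 read 0.73, -0.21, 0.55, 0.08 and 1.18 in Mitsui high, 0.68, -0.28, 0.34, 2.26 and 0.74 in Mitsui low and -0.49, -0.61, -0.73, -0.67 and -0.59 in control lungs. All exposed animals were above all controls, the lowest being NM-401 high animal 2. Its changes were 2.18 in NM-401 high, 1.80 in NM-401 low, 1.09 in Mitsui high and 1.37 in Mitsui low, called in both NM-401 groups. Ifit3 had 2.65, 1.71, 3.86, 3.59 and 3.48 in NM-401 high lungs and 1.98, 1.90, 3.36, 3.44 and 3.84 in NM-401 low lungs. Ifit3 read 2.74, 2.17, 2.88, 2.18 and 2.77 in Mitsui high, 2.66, 2.05, 2.34, 3.75 and 2.55 in Mitsui low and 2.20, 2.08, 1.88, 1.80 and 2.04 in control lungs. NM-401 high animal 2 lay below all controls, and of the changes only 1.06 in NM-401 high was called. Mice carry Ifit3b, a close copy of Ifit3, and which of them a probe read was not tested. Ifit2 changed by 0.93 in NM-401 high, 0.39 in NM-401 low, 0.17 in Mitsui high and 0.11 in Mitsui low, with no call.

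The 2 guanylate-binding proteins on the list are GTPases that attack membranes around microbes, and 1 of them rose with NM-401 high and neither in another exposure. Gbp2 had 2.96, 2.58, 3.60, 3.27 and 3.19 in NM-401 high lungs and 2.98, 2.70, 3.61, 3.53 and 3.37 in NM-401 low lungs. Gbp2 read 2.91, 3.05, 3.06, 3.20 and 2.65 in Mitsui high, 3.39, 3.29, 2.83, 3.46 and 3.04 in Mitsui low and 3.11, 3.27, 2.78, 2.57 and 2.81 in control lungs. The groups overlapped in every exposure and Gbp2 had the smallest change of NM-401 high, 0.21 ± 0.18 (SE, adjusted p = 0.414, limma). Gbp3 had 1.76, 1.08, 3.29, 2.98 and 2.70 in NM-401 high lungs and 1.54, 1.17, 2.68, 2.60 and 2.75 in NM-401 low lungs. Gbp3 read 1.86, 1.18, 1.57, 1.80 and 1.85 in Mitsui high, 2.02, 1.15, 1.47, 2.84 and 1.40 in Mitsui low and 1.46, 1.65, 0.86, 0.95 and 1.28 in control lungs. Unlike Gbp2 it was called with NM-401 high, at 1.12 ± 0.37, with the other 3 changes at 0.90, 0.41 and 0.54; the difference between the 2 genes was not tested.

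Among the other antiviral effectors 4 of 5 rose with NM-401 high. Rsad2, the radical enzyme viperin, had 1.15, 0.18, 3.79, 3.37 and 2.99 in NM-401 high lungs and 0.66, 0.62, 2.44, 2.01 and 2.69 in NM-401 low lungs. Rsad2 read 1.59, 0.99, 1.22, 1.28 and 1.82 in Mitsui high, 1.38, 0.63, 0.82, 2.32 and 1.76 in Mitsui low and 0.75, 0.68, 0.41, 0.92 and 0.15 in control lungs. In NM-401 high animal 2 lay inside the control range and animal 3 was the highest of all 25, and the change of 1.71 ± 0.52 (SE) was called whereas 1.10 ± 0.52 in NM-401 low was not. Cmpk2, a mitochondrial nucleotide kinase encoded beside Rsad2, had 1.81, 1.68, 3.24, 3.04 and 2.59 in NM-401 high lungs and 1.34, 1.01, 2.55, 2.57 and 2.94 in NM-401 low lungs. Cmpk2 read 1.95, 1.64, 1.85, 2.10 and 2.28 in Mitsui high, 2.24, 1.63, 1.92, 2.70 and 1.66 in Mitsui low and 1.47, 1.33, 1.30, 1.23 and 1.79 in control lungs. Cmpk2 changed by 1.05 in NM-401 high, 0.66 in NM-401 low, 0.54 in Mitsui high and 0.60 in Mitsui low, called with NM-401 high.

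Eif2ak2, the kinase PKR that halts translation on double-stranded RNA, had 0.36, -0.10, 1.34, 1.02 and 0.88 in NM-401 high lungs and 0.06, 0.20, 0.92, 0.83 and 0.83 in NM-401 low lungs. Eif2ak2 read 0.50, 0.13, 0.44, 0.20 and 0.54 in Mitsui high, 0.44, -0.07, 0.18, 0.93 and 0.26 in Mitsui low and -0.13, -0.33, -0.38, -0.46 and -0.37 in control lungs. All exposed animals were above all controls, and the change was called in all 4 exposures at 1.04 ± 0.22, 0.90 ± 0.22, 0.69 ± 0.22 and 0.68 ± 0.22 (SE). Bst2, the virion tether tetherin, had 1.08, 0.31, 3.02, 2.44 and 2.09 in NM-401 high lungs and -0.22, 0.47, 2.49, 1.99 and 2.58 in NM-401 low lungs. Bst2 read 1.17, 1.04, 0.08, 0.74 and 0.75 in Mitsui high, 1.77, 0.30, 0.80, 2.34 and 0.23 in Mitsui low and 0.93, 0.79, 0.59, 0.76 and 0.99 in control lungs. Exposed animals lay on both sides of the controls, which spanned only 0.59 to 0.99, and no change was called, the largest being 0.98 ± 0.51. Samd9l, which restricts growth and translation, changed by 0.68 in NM-401 high, 0.52 in NM-401 low, 0.21 in Mitsui high and 0.21 in Mitsui low, called with NM-401 high.

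Parp9 and Dtx3l, which act as a pair in ADP-ribosylation and ubiquitylation, and Parp14, a mono-ADP-ribosyltransferase, all rose with NM-401 high, and Parp9 also with NM-401 low. Parp14 had 2.23, 2.05, 3.54, 3.73 and 3.20 in NM-401 high lungs and 2.36, 2.18, 3.19, 3.16 and 3.20 in NM-401 low lungs. Parp14 read 2.62, 2.24, 2.44, 2.49 and 2.63 in Mitsui high, 2.58, 2.20, 2.47, 3.09 and 2.39 in Mitsui low and 2.30, 2.31, 2.06, 2.14 and 2.25 in control lungs. Animals 1 and 2 of NM-401 high lay below the highest control and animals 3, 4 and 5 at 3.20 or above. Its changes were 0.74 in NM-401 high, 0.61 in NM-401 low, 0.27 in Mitsui high and 0.33 in Mitsui low. Parp9 changed by 0.92 in NM-401 high, 0.74 in NM-401 low, 0.45 in Mitsui high and 0.60 in Mitsui low and Dtx3l by 0.81 in NM-401 high, 0.55 in NM-401 low, 0.31 in Mitsui high and 0.48 in Mitsui low.

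Of the 7 remaining induced genes all rose with NM-401 high, 4 with NM-401 low, 1 with Mitsui high and 2 with Mitsui low. The 1 of 7 with Mitsui high lies near the share of all features there, 12.7%. Ifi27l2a, a small membrane protein, had 3.69, 2.45, 5.94, 5.50 and 5.50 in NM-401 high lungs and 2.69, 2.12, 5.43, 5.19 and 5.37 in NM-401 low lungs. Ifi27l2a read 3.92, 1.35, 3.61, 3.07 and 3.88 in Mitsui high, 4.08, 1.60, 3.51, 5.29 and 3.16 in Mitsui low and 1.06, 2.88, 0.89, 0.11 and 0.26 in control lungs. Control animal 2, at 2.88, was far above the other controls and above the lowest animal of each exposed group. Ifi27l2a was 11.9-fold higher in NM-401 high (95% interval 3.9 to 36.4), 8.68-fold in NM-401 low (2.84 to 26.5) and 5.6-fold in Mitsui low (1.83 to 17.1), and at 4.35 in Mitsui high missed the threshold (adjusted p = 0.0503, limma).

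Lgals3bp, a secreted glycoprotein that binds galectin-3, had 2.85, 2.01, 4.02, 3.67 and 3.75 in NM-401 high lungs and 1.87, 1.99, 3.50, 3.22 and 3.75 in NM-401 low lungs. Lgals3bp read 2.68, 1.92, 2.76, 2.28 and 2.61 in Mitsui high, 2.49, 2.12, 2.41, 3.50 and 2.49 in Mitsui low and 1.13, 0.95, 1.18, 0.84 and 1.05 in control lungs. The controls spanned 0.84 to 1.18 and the lowest exposed animal stood at 1.87. Lgals3bp was higher by 2.23 ± 0.36, 1.84 ± 0.36, 1.42 ± 0.36 and 1.57 ± 0.36 (SE), called in each.

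Ifi44, a cytoplasmic induced protein, had -0.19, -1.20, 2.10, 1.83 and 1.24 in NM-401 high lungs and -1.09, -1.18, 1.16, 1.17 and 1.57 in NM-401 low lungs. Ifi44 read 0.0021, -1.03, -0.44, -0.49 and -0.08 in Mitsui high, -0.05, -1.09, -0.28, 1.47 and -0.51 in Mitsui low and -1.08, -1.23, -1.78, -1.53 and -1.13 in control lungs. Animals 1 and 2 of NM-401 low and animal 2 of the other exposed groups lay near the highest control at -1.08. Ifi44 changed by 2.10 in NM-401 high, 1.67 in NM-401 low, 0.94 in Mitsui high and 1.26 in Mitsui low, called in both NM-401 groups. Rtp4, a chaperone of certain G protein-coupled receptors, had 1.07, 0.39, 2.98, 2.84 and 2.58 in NM-401 high lungs and 0.75, 0.26, 2.69, 2.68 and 2.37 in NM-401 low lungs. Rtp4 read 1.49, 0.33, 1.25, 1.09 and 1.33 in Mitsui high, 1.43, 0.18, 1.28, 2.48 and 0.75 in Mitsui low and 0.64, 0.35, -0.20, 0.03 and 0.31 in control lungs. Animal 2 of each exposed group lay inside the control range, and the changes were 1.75 in NM-401 high, 1.53 in NM-401 low, 0.87 in Mitsui high and 1.00 in Mitsui low, called in both NM-401 groups.

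Xaf1, a partner of the apoptosis inhibitor XIAP, had 1.56, 0.68, 2.94, 2.70 and 2.41 in NM-401 high lungs and 0.91, 0.60, 2.48, 2.39 and 2.68 in NM-401 low lungs. Xaf1 read 1.52, 0.69, 1.54, 1.23 and 1.44 in Mitsui high, 1.69, 0.89, 1.34, 2.37 and 1.07 in Mitsui low and 1.00, 0.67, 0.81, 0.59 and 0.79 in control lungs. In NM-401 high 4 animals and in NM-401 low 3 animals exceeded every control, and the changes were 1.28 in NM-401 high, 1.04 in NM-401 low, 0.51 in Mitsui high and 0.70 in Mitsui low, called with NM-401 high. Its 2 probes gave 1.28 and 0.44 for NM-401 high, the widest difference, 0.85, among the 12 members with 2 probes, whose median difference was 0.22 with 0 opposite signs in NM-401 high. In the Mitsui groups the second probe lay just below 0 for Xaf1 in Mitsui high, at -0.0307 against 0.51, and for Ifih1 and Tor3a in Mitsui low, at -0.0017 against 0.43 and at -0.0068 against 0.37. For Tor3a the probe used and the other gave 0.65 and 0.41 in NM-401 high, and 0.42 and 0.0082 in NM-401 low. For Ddx58 in NM-401 low, where it was called, they gave 0.56 and 0.26. In NM-401 high the probe used gave the larger change in each of the 12 members but Herc6 and Zbp1. Ifi35 changed by 0.49 in NM-401 high, 0.41 in NM-401 low, 0.12 in Mitsui high and 0.25 in Mitsui low and Tor3a, a torsin ATPase, by 0.65 in NM-401 high, 0.42 in NM-401 low, 0.34 in Mitsui high and 0.37 in Mitsui low, both called with NM-401 high.

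No member differed between the doses or the materials by limma's adjusted p. NM-401 high against NM-401 low called 0 of 35 members, with 0 at an unadjusted p under 0.05, against 3.84% of all features, and the median difference was 0.27, which ran from 0.05 without NM-401 low animal 2 to 0.62 without NM-401 high animal 2. For Oas1a the difference was 0.70 (95% interval -0.48 to 1.88), an interval that spans both signs. Mitsui high against Mitsui low called 0 members, with 0 at an unadjusted p under 0.05, and 0% of all features, with a median of -0.13, and 4 of 35 members were higher at the high dose. The difference in dose step between the materials was called in 0 of 35 members, with 0 at an unadjusted p under 0.05, against 0.0305% of all features, at a median of 0.46, which ran from 0.21 without NM-401 high animal 3 to 0.78 without NM-401 high animal 2.

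NM-401 high against Mitsui high gave a median difference of 0.77 with all 35 members higher in NM-401 high. By limma 0 were called, with 10 at an unadjusted p under 0.05, against 0.793% of all features. The 10 were Irf7, Oas1a, Oasl1, Oas3, Zbp1, Dhx58, Lgals3bp, Ifih1, Dtx3l and Samd9l, with Oas3 at 1.09 (95% interval 0.26 to 1.91, adjusted p = 0.164) and Irf7 at 1.58 (0.07 to 3.08). Without NM-401 high animal 2, 1 member, Oas3, was called. NM-401 low against Mitsui low gave a median of 0.30 with all 35 higher in NM-401 low, running from 0.11 without NM-401 low animal 5 to 0.53 without Mitsui low animal 4, and 0 members were called, 0 at an unadjusted p under 0.05, as were 0% of all features. Within slides these medians did not keep their sign in each case. They were -0.32, -1.03 and 0.22 on slides 1, 3 and 4 for NM-401 high against NM-401 low, 0.17, -1.01, 0.23 and -0.33 on slides 1 to 4 for Mitsui high against Mitsui low, 0.82, -1.61, 1.52 and 1.01 on slides 1 to 4 for NM-401 low against Mitsui low, and 0.28, 0.07 and 1.62 on slides 1, 3 and 4 for NM-401 high against Mitsui high.

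The other genes of the interferon pathway were read from lists that hold 113 genes, 94 of them tested. Of those 94, 54 rose and 2 fell with NM-401 high, and 29 rose and 1 fell with NM-401 low. With Mitsui high 19 rose and 1 fell, and with Mitsui low 16 rose and 2 fell. The median changes were 0.52, 0.41, 0.20 and 0.25 in that order. Among all features 18.4%, 8.95%, 12.7% and 10.6% rose in the same order, and 16.4%, 8%, 11% and 10.4% fell. Of 17 interferon ligand genes listed, 14 had a probe, and 8 passed the filter (Ifna1, Ifna5, Ifna12, Ifna14, Ifnab, Ifnl3, Ifnk and Ifng). The probes used for Ifna12, Ifnab and Ifnl3 were well above background in 21, 24 and 24 of 25 animals. A second probe of the same genes was so in only 1, 0 and 0 animals. Detection of these 3 ligands thus rests on 1 probe each. None was called in any exposure by limma, with 1 at an unadjusted p under 0.05 in NM-401 high and 0 in the others, and the median changes were 0.08, 0.03, -0.04 and 0.000667 in NM-401 high, NM-401 low, Mitsui high and Mitsui low. The Ifnb1 probe was well above background in 1 of 25 animals, so its level was not measured in the other 24.

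Ifng, the macrophage-activating interferon of T and NK cells, had 0.31, 0.23, 1.32, 0.77 and 0.84 in NM-401 high lungs and 0.35, 0.14, 1.08, 0.62 and 0.49 in NM-401 low lungs. Ifng read 0.24, 0.17, 0.10, 0.58 and 0.46 in Mitsui high, 0.56, 0.13, 0.40, 0.89 and 0.46 in Mitsui low and 0.49, 0.90, 0.38, 0.38 and 0.66 in control lungs. Its group changes were 0.13 in NM-401 high, -0.03 in NM-401 low, -0.25 in Mitsui high and -0.07 in Mitsui low, none called, and the probe was well above background in 18 of 25 animals. Within both NM-401 groups animals 3, 4 and 5 were above animals 1 and 2, as for the members.

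Among the 9 receptor chains and kinases, the receptor chains Ifnar2 and Ifngr2 rose in all 4 exposures. Ifnar2, the chain that binds type I interferon tightly, had 0.81, 0.51, 0.77, 0.70 and 0.92 in NM-401 high lungs and 0.35, 0.58, 0.76, 0.50 and 0.81 in NM-401 low lungs. Ifnar2 read 0.61, 0.54, 0.58, 0.61 and 0.51 in Mitsui high, 0.67, 0.77, 0.38, 0.68 and 0.72 in Mitsui low and 0.08, 0.23, 0.32, 0.13 and 0.27 in control lungs. All 20 exposed animals lay above all controls and animals 1 and 2 were not set apart. Ifnar2 changed by 0.54 ± 0.09, 0.39 ± 0.09, 0.36 ± 0.09 and 0.44 ± 0.09 (SE) and Ifngr2 by 0.71 in NM-401 high, 0.36 in NM-401 low, 0.39 in Mitsui high and 0.43 in Mitsui low. Ifngr1, the other chain of the gamma receptor, fell in 3 of 4 exposures, with -0.32 in NM-401 high, -0.25 in NM-401 low, -0.21 in Mitsui high and -0.29 in Mitsui low, where the Mitsui high value was not called. Jak1 fell in both Mitsui groups, by 0.17 in Mitsui high and by 0.20 in Mitsui low. With NM-401 high Il10rb, Ifnar1, Jak2 and Tyk2 also rose, by 0.44, 0.35, 0.31 and 0.30, and Il10rb rose in both Mitsui groups as well.

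Irf5, an interferon regulatory factor of macrophages, rose by 0.99, 0.62 and 0.53 with NM-401 high, NM-401 low and Mitsui high.

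Of 13 sensors and adaptors that act before interferon is made, 9 rose with NM-401 high and 6 in each other exposure, and none fell. The share of all features that rose was 18.4% in NM-401 high, 8.95% in NM-401 low, 12.7% in Mitsui high and 10.6% in Mitsui low. Sting1, the adaptor of the DNA sensor Cgas, had 0.46, 0.62, 1.07, 0.65 and 1.07 in NM-401 high lungs and 0.04, 0.34, 0.49, 0.09 and 0.22 in NM-401 low lungs. Sting1 read 0.23, 0.07, -0.24, 0.07 and 0.61 in Mitsui high, 0.22, 0.08, 0.43, 0.21 and 0.20 in Mitsui low and -0.38, -0.65, -0.75, -0.77 and -0.54 in control lungs. All exposed animals lay above all controls. Sting1 was higher by 1.39 ± 0.13, 0.85 ± 0.13, 0.77 ± 0.13 and 0.85 ± 0.13 (SE), and it was higher in NM-401 high than in Mitsui high by 0.62 ± 0.13 (adjusted p = 0.0325, limma).

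Cgas had -0.75, -0.71, -0.24, -0.30 and -0.38 in NM-401 high lungs and -0.84, -0.79, -0.52, -0.62 and -0.61 in NM-401 low lungs. Cgas read -0.67, -0.95, -0.97, -0.67 and -0.69 in Mitsui high, -0.75, -1.12, -0.66, -0.38 and -0.78 in Mitsui low and -1.03, -1.18, -1.57, -1.23 and -1.33 in control lungs. Mitsui low animal 2 lay inside the control range, and the change was called in all 4 exposures, at 0.79 in NM-401 high, 0.59 in NM-401 low, 0.48 in Mitsui high and 0.53 in Mitsui low. The endosomal RNA receptor Tlr7 changed by 0.94 in NM-401 high, 0.63 in NM-401 low, 0.66 in Mitsui high and 0.75 in Mitsui low, the kinase Ikbke by 0.87 in NM-401 high, 0.44 in NM-401 low, 0.52 in Mitsui high and 0.54 in Mitsui low, the adaptor Myd88 by 0.72 in NM-401 high, 0.48 in NM-401 low, 0.41 in Mitsui high and 0.50 in Mitsui low and the receptor chaperone Unc93b1 by 0.75 in NM-401 high, 0.59 in NM-401 low, 0.45 in Mitsui high and 0.45 in Mitsui low, called in each case.

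**Figure D5:**
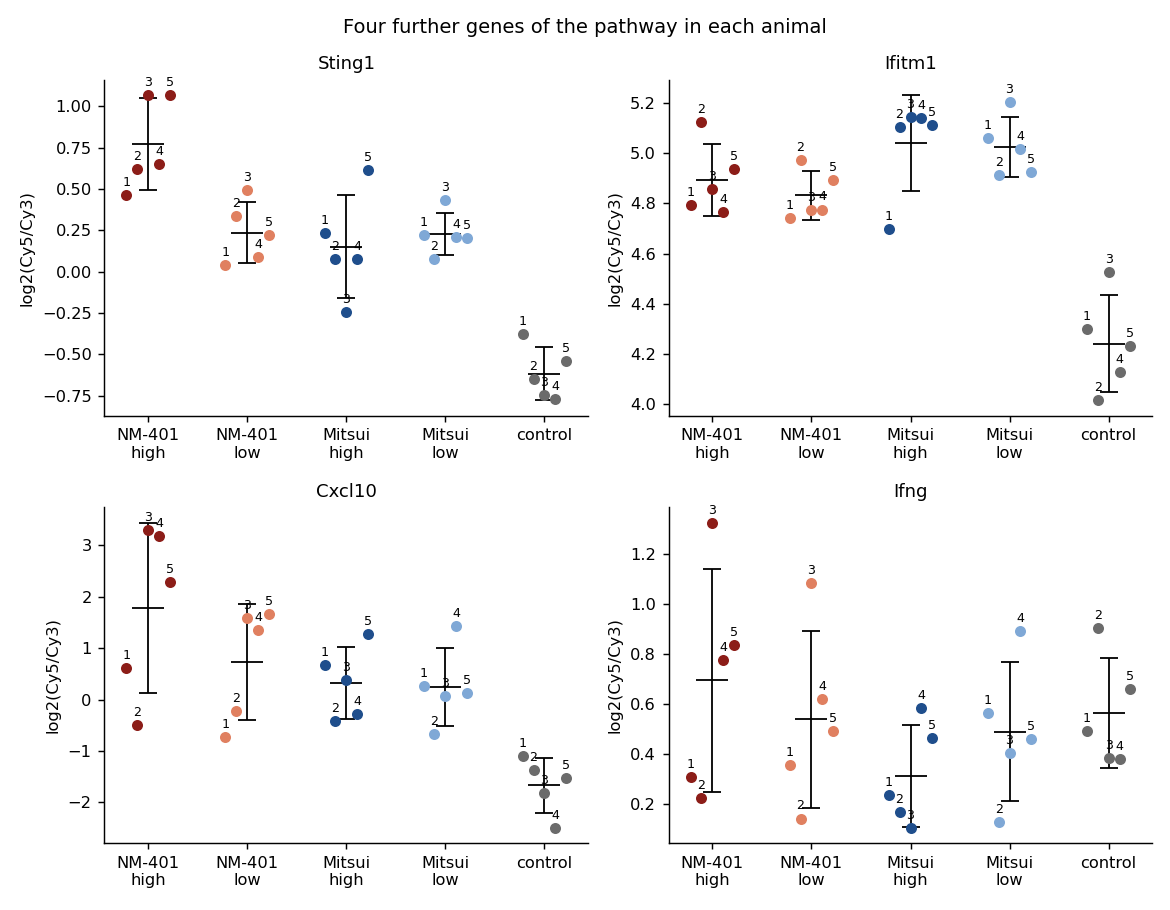
Log2(Cy5/Cy3) of Sting1, Ifitm1, Cxcl10 and Ifng in each animal (numbered dots) with group mean and SD (bars, n = 5); each panel has its own scale. Sting1 and Ifitm1 lie above all controls in all 20 exposed animals, Cxcl10 spans from -0.48 to 3.29 in NM-401 high, and Ifng overlaps the controls in every group.

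Of 7 negative regulators 6 rose in each NM-401 group and 3 in each Mitsui group. Beside these counts, 18.4%, 8.95%, 12.7% and 10.6% of all features rose in NM-401 high, NM-401 low, Mitsui high and Mitsui low. Socs3, Ptpn6 and Ptpn2, which damp cytokine receptor signalling, were called in all 4, Socs3 at 0.92 in NM-401 high, 0.63 in NM-401 low, 0.66 in Mitsui high and 0.75 in Mitsui low and Ptpn6 at 1.09 in NM-401 high, 0.64 in NM-401 low, 0.79 in Mitsui high and 0.60 in Mitsui low. Trex1, a DNase that clears cytosolic DNA, rose by 1.31 with NM-401 high and 0.91 with NM-401 low, and Adar, which edits double-stranded RNA, by 0.91 and 0.79.

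Among 16 genes induced mainly by interferon gamma, 11 rose with NM-401 high, 4 with NM-401 low, 1 with Mitsui high and 0 with Mitsui low by limma, where 4 had an unadjusted p under 0.05. Against these stand 18.4%, 8.95%, 12.7% and 10.6% of all features in the same order, so neither Mitsui count exceeds its background. Cxcl9, a T cell chemokine, changed by 2.04 in NM-401 high, 1.07 in NM-401 low, 0.70 in Mitsui high and 0.71 in Mitsui low, Iigp1, an immunity-related GTPase, by 1.53 in NM-401 high, 1.04 in NM-401 low, 0.66 in Mitsui high and 0.75 in Mitsui low, and Tap1, the peptide transporter of antigen presentation, by 1.26 in NM-401 high, 0.86 in NM-401 low, 0.47 in Mitsui high and 0.65 in Mitsui low. Nos2, the inducible nitric oxide synthase, was the 1 called with Mitsui high, at 0.68.

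Of 35 further type I interferon-stimulated genes, 20 rose and 1 fell with NM-401 high, 10 rose with NM-401 low, 5 with Mitsui high and 4 with Mitsui low. Of all features 18.4%, 8.95%, 12.7% and 10.6% rose in NM-401 high, NM-401 low, Mitsui high and Mitsui low, so both Mitsui counts lie near their background. Cxcl10, a chemokine for T and NK cells, had 0.61, -0.48, 3.29, 3.19 and 2.29 in NM-401 high lungs and -0.73, -0.21, 1.60, 1.35 and 1.67 in NM-401 low lungs. Cxcl10 read 0.67, -0.41, 0.38, -0.28 and 1.28 in Mitsui high, 0.27, -0.67, 0.08, 1.43 and 0.14 in Mitsui low and -1.10, -1.37, -1.82, -2.50 and -1.52 in control lungs. No exposed animal overlapped the controls. Cxcl10 was 10.9-fold higher in NM-401 high, 5.27-fold in NM-401 low, 3.97-fold in Mitsui high and 3.76-fold in Mitsui low, with log2 changes of 3.44 in NM-401 high, 2.40 in NM-401 low, 1.99 in Mitsui high and 1.91 in Mitsui low, each ± 0.60 (SE). Ifi204, a DNA-binding protein of the p200 family, changed by 2.80 in NM-401 high, 2.02 in NM-401 low, 1.54 in Mitsui high and 1.66 in Mitsui low. The gene that fell with NM-401 high was Tnfsf10, the death ligand TRAIL, at -0.39.

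Ifitm1, a membrane protein that hinders viral entry, showed no such split between animals. Ifitm1 had 4.79, 5.12, 4.86, 4.77 and 4.94 in NM-401 high lungs and 4.74, 4.97, 4.77, 4.78 and 4.89 in NM-401 low lungs. Ifitm1 read 4.70, 5.10, 5.14, 5.14 and 5.11 in Mitsui high, 5.06, 4.91, 5.21, 5.02 and 4.92 in Mitsui low and 4.30, 4.01, 4.53, 4.13 and 4.23 in control lungs. Every exposed animal lay above every control within a narrow range, and the change of 0.65 in NM-401 high, 0.59 in NM-401 low, 0.80 in Mitsui high and 0.78 in Mitsui low was called in each exposure.

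The genes whose pattern over animals was most like the members were sought among the other features with a gene symbol by the correlation of group-centred values with the member mean over 25 animals. The 8 highest were Irgm1 at 0.987, Trim30a at 0.986, Phf11d at 0.986, Adar at 0.984, Iigp1 at 0.976, Ifit3b at 0.975, Ifi204 at 0.975 and Phf11b at 0.971. All 8 stand on the pathway lists, which were chosen with earlier results of these data known, so this is no independent check. Over the 15 Mitsui and control animals alone the same 8 genes had r from 0.901 to 0.973. In all, 103 features that are not members were above 0.9.

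Markers of cell types were set beside the members. For all marker counts below, the share of all features that rose was 18.4%, 8.95%, 12.7% and 10.6% in NM-401 high, NM-401 low, Mitsui high and Mitsui low. Of 7 macrophage markers tested 5 rose with NM-401 high, 4 with NM-401 low, 3 with Mitsui high and 4 with Mitsui low, Cd14 by 2.87 in NM-401 high, 2.26 in NM-401 low, 2.09 in Mitsui high and 2.27 in Mitsui low and Adgre1 by 1.92 in NM-401 high, 1.26 in NM-401 low, 1.31 in Mitsui high and 1.52 in Mitsui low. The mean over these markers was 3.25, 3.47, 3.02, 3.10 and 3.25 in NM-401 high and 2.92, 3.20, 2.95, 2.73 and 3.06 in NM-401 low lungs, 2.82 to 3.23 in Mitsui high, 2.94 to 3.33 in Mitsui low and 2.22 to 2.40 in control lungs. By this mean all exposed animals were above all controls, and within the NM-401 groups animal 2 was the highest, not the lowest. Cd14 and Adgre1 made up most of the rise of the mean in each exposure. The other markers, some of which were not called higher, are not valued here, and no mean without Cd14 and Adgre1 is given. The part of macrophage number in the member changes against control was not tested.

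Of 4 monocyte markers 3 rose with NM-401 high, 2 with NM-401 low, 1 with Mitsui high and 3 with Mitsui low. Their mean was 2.12, 2.15, 2.94, 2.62 and 2.85 in NM-401 high and 1.71, 1.93, 2.50, 2.04 and 2.12 in NM-401 low lungs, 1.57 to 2.21 in Mitsui high, 1.71 to 2.51 in Mitsui low and 1.00 to 1.75 in control lungs. For these markers animals 3, 4 and 5 of both NM-401 groups lay above animals 1 and 2, as for the members, and Mitsui low animal 4 was again the highest of its group. Plac8, 1 of the 4, changed by 1.72 in NM-401 high, 1.23 in NM-401 low, 0.87 in Mitsui high and 1.06 in Mitsui low. Over 11 T and NK cell markers the means were 0.95, 1.14, 1.74, 1.56 and 1.61 in NM-401 high and 1.08, 0.78, 1.56, 1.34 and 1.22 in NM-401 low lungs, with animals 3, 4 and 5 above animals 1 and 2, but the controls, at 1.14 to 1.71, were as high, and 0 of the 11 rose in any exposure by limma, with 1, 3, 0 and 1 at an unadjusted p under 0.05 in either direction in NM-401 high, NM-401 low, Mitsui high and Mitsui low. The part of these cells in the spread between animals was not tested.

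Plasmacytoid dendritic cells, known for making type I interferon, gave marker means of 0.50 to 0.89 in NM-401 high, 0.49 to 0.80 in NM-401 low, 0.46 to 0.60 in Mitsui high, 0.53 to 0.63 in Mitsui low and 0.46 to 0.75 in control lungs, so the ranges overlapped. Of the 8 markers Klk1 rose with NM-401 high, by 0.94 ± 0.21 (SE), and Tcf4 fell in every exposure, while Siglech had 1.16, 0.99, 0.98, 1.12 and 0.84 in NM-401 high and 1.15, 1.46, 1.20, 0.95 and 1.07 in control lungs. The mean over neutrophil markers was 2.62 to 3.00 in NM-401 high, 2.54 to 3.12 in NM-401 low, 2.48 to 3.83 in Mitsui high, 2.63 to 3.39 in Mitsui low and 1.97 to 3.46 in control lungs. B cell, conventional dendritic cell and cardiac muscle markers likewise overlapped the controls in every exposure.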

How the data were processed

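Lung RNA of 25 mice was measured on 26 two-colour Agilent arrays, the animal in Cy5 and universal reference RNA in Cy3. The deposited scanner files give, per the file headers, median signal intensity and background intensity per spot, flags, and a log10 ratio made by Agilent Feature Extraction 11.0.1.1. The deposited normalized table holds log2 ratios of Cy5 over Cy3. How the authors normalized it is not given in the sources used here, and it was set against loess ratios without background subtraction (slope 0.994 to 0.999, column medians -0.040 to -0.018).

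From the median intensities, background was corrected by normexp with offset 50 and each array was normalized by loess in limma 3.58.1 under R 4.3.3. Outlier spots (0.461%) were left out, spots of a probe averaged, and the 2 arrays of 1 Mitsui low animal averaged. Probes well above background in Cy5 in at least 4 animals of 1 group were kept, and the brightest probe stood for a gene, leaving 22950 features (14838 named by symbol). Probes were named by matching their RefSeq accession to the current symbol, and 28446 of 55681 probes had none. Limma fitted 1 mean per group over all 5 groups with 20 residual and 3.76 prior degrees of freedom, and p-values were adjusted by Benjamini-Hochberg over all features. The fit was tested on simulated data, in which each value was drawn independently with 1 SD per feature common to all groups. The members moved together and their spread differed between groups, so the simulation does not cover the member calls. The number of arrays limits the precision. Array values carry no read depth.

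The members and all gene lists were chosen with earlier results of these data known. Every member measured is named, with values per animal for a set fixed by role, and of each further list up to 4 called genes with the largest change per exposure, besides the ligands, the receptors and genes plotted as examples. Further per-animal values (Ifnar2, Cgas, Siglech) were chosen after their values were seen. Alternatives were the normalization, the background correction, the filter, the probe choice, the slide or the replicate number as a block, the deposited ratios, the repeated array, the variance prior, and leaving out each animal. Labels do not say that equal replicate numbers share anything.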

Additional observations from a re-analysis of the deposited data

Results flagged for a closer look

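Of 175 combinations of a member and a group of 5 animals, 6 held 1 animal far from the other 4, by the gap to its nearest neighbour over the range of the group. Chance gives about 1 in 20. The Samd9l value of Mitsui low animal 4 was 1.98, with the nearest at 1.58. That animal also stood apart for Lgals3bp, at 3.50 with the nearest at 2.49, and for Tor3a, at 1.75 with the nearest at 1.27. Mitsui high animal 4 was low for Tor3a, at 0.98 with the nearest at 1.26. Among controls, animal 3 was low for Stat2, at -0.0374 with the nearest at 0.47, and animal 1 was high for Oasl2, at 1.03 with the nearest at 0.66.

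Between the materials at the high dose, limma called a difference for Klk1, a marker on the plasmacytoid dendritic cell list, which was 0.93 higher on the log2 scale in NM-401 high than in Mitsui high (adjusted p = 0.0425). Sting1 was 0.62 higher in NM-401 high than in Mitsui high by the same test.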

How the results depend on the processing

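The direction of the median member change against control was the same under the 11 alternatives that keep all animals and under every leave-out. Median centring of each array gave 12 members called in NM-401 high and 0 in NM-401 low, Mitsui high and Mitsui low; the cause was not tested. With the replicate block, 15 members were called in Mitsui low and 8 in Mitsui high, and the block changed no other count by over 1.5 times. Same-numbered animals correlated at -0.38 to 0.41, with a mean of 0.01, against a mean of -0.002 for animals of other numbers. Of 25 animals, 5 correlated best with their own number. These correlations cannot tell if animals of 1 number shared any handling. Leaving out 1 animal gave 22 to 34 calls in NM-401 high, 7 to 25 in NM-401 low, 4 to 7 in Mitsui high and 4 to 8 in Mitsui low. It gave 0 to 1 for NM-401 high against Mitsui high and 0 for the other comparisons. The medians then ran from 1.06 to 1.59, 0.84 to 1.27, 0.54 to 0.74 and 0.48 to 0.84 against control in the same order of groups, and from -0.28 to 0.08 for Mitsui high against Mitsui low. Of the members called with all animals, 12 of 32 in NM-401 high were called under every alternative and leave-out, and 0 in the other exposures. In those exposures Oas1a, Oas2, Zbp1 and Lgals3bp lost their call under median centring only. That was 1 of 19 settings in NM-401 low and Mitsui high and 1 of 21 in Mitsui low. Ddx58 and Ifi44 in NM-401 low lost theirs in 12 of 19 settings.

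Within slides, with 1 or 2 arrays a side, some medians moved by more than the spread between animals. For NM-401 low against control they were 0.11 on slide 2, 1.95 on slide 3 and 1.73 on slide 4, and for Mitsui low against control 1.64 on slide 2. For NM-401 low against Mitsui low they were -1.61, 1.52 and 1.01 on slides 2, 3 and 4. NM-401 high against Mitsui high gave 0.0685 on slide 3 and 1.62 on slide 4, NM-401 high against NM-401 low -1.03 on slide 3, and Mitsui high against Mitsui low -1.01 on slide 2.

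Members that changed sign under these alternatives had not been called. Under median centring these were Ifit2 at -0.0604 and Samd9l at -0.0261 in Mitsui low, and Gbp2 at -0.13, Ifi35 at -0.0863 and Ifih1 at -0.0157 in Mitsui high. In Mitsui high Gbp2 was -0.00416 by Feature Extraction ratios, and Bst2 was 0.0159 with slide as a block. Over the leave-outs, in Mitsui high Gbp2 ran from -0.0207 (without control animal 4) to 0.16 and Bst2 from -0.16 to 0.12 (without Mitsui high animal 3). In Mitsui low Bst2 ran from -0.0326 to 0.50 and Ifit2 from -0.11 to 0.26, both lowest without Mitsui low animal 4.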

Other observations

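The animal numbered 2 had the lowest mean over the 35 members in each of the 4 exposed groups, at 0.58 in NM-401 high, 0.62 in NM-401 low, 0.68 in Mitsui high and 0.58 in Mitsui low. These 4 animals were hybridised on slides 1, 2, 4 and 3, in that order. Control animal 2, at 0.46, was not the lowest control. What a number stands for is not stated in the labels. The macrophage marker mean of the same 4 animals was 3.47, 3.20, 2.99 and 3.33, the highest of its group in NM-401 high, NM-401 low and Mitsui low.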
